A study of Mus musculus with 8 samples.

Results

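Rab proteins are the largest family of small GTPases, molecular switches that sit on membranes in their GTP-bound form and direct vesicle budding, transport, tethering and fusion. Each is placed on its own compartment by a guanine nucleotide exchange factor (GEF), is switched off by a GTPase-activating protein (GAP) and acts through effectors. In conventional dendritic cells (cDC), the antigen-presenting cells that prime T cells, this traffic carries cargo along phagosomes, endosomes, lysosomes and recycling routes; cDC1 are known for loading peptides from engulfed material onto MHC class I (cross-presentation), and cDC2 for MHC class II presentation to CD4 T cells.

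The family was taken by name: protein-coding mouse genes whose symbol is Rab followed by a number and at most a letter and a digit, which left out effectors and regulators such as Rabgef1 and the Rab11fip genes. Of 55487 genes in the files, 59 met this rule, and 54 of these had enough counts to be tested among 20631 tested genes. RNA was sequenced from cDC sorted out of the spleens of untreated C57BL/6 mice, 100000 cells per library, in 4 groups of 2 libraries. These were cDC1 from Zeb2 -165(d1+2+3) mice, named Zeb2 mutant cDC1 below, wild-type cDC1, cDC2 from Irf8 +32-/- mice, named Irf8 mutant cDC2, and wild-type cDC2. Both genotypes name an enhancer, 1 of Zeb2, a repressor associated with cDC2 and monocytes, and 1 of Irf8, the transcription factor cDC1 depend on; neither names a change of coding sequence. Each mutant was profiled in 1 cell type, so that no Zeb2 mutant cDC2 and no Irf8 mutant cDC1 enter any comparison. The sources used here give neither the sort gates nor the number of animals behind a library, nor what the replicate numbers 2 and 3 stand for. A p-value therefore measures only how far these libraries spread, which may be technical.

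The libraries held 49380686 to 58611821 counts. All 10 cDC1 markers (among them Xcr1, Clec9a and Cadm1) were higher and all 10 cDC2 markers (among them Sirpa, Irf4 and Clec4a4) lower in wild-type cDC1 than in wild-type cDC2, and the summed cDC1 markers were at 8184 to 8854 CPM in the 4 cDC1 libraries and at 243.9 to 288.9 CPM in the 4 cDC2 libraries. CPM here are counts per 1000000 of the library scaled with TMM, and RPKM are these CPM per kilobase of exon, the scale on which levels of different genes are compared. Neither Irf8 in the Irf8 mutant cDC2 (147 and 120.0 CPM, against 126 and 104 CPM in wild-type cDC2) nor Zeb2 in the Zeb2 mutant cDC1 (2.24 and 3.54 CPM, against 2.09 and 2.10 CPM in wild-type cDC1) was called. Within wild-type cDC1 the replicates parted by gene length, with a Spearman's rho of -0.391 between length and the log2 ratio of replicate 2 to replicate 3 over 8399 genes, and they had counts for 25993 and 32358 genes. A gene was called when its p in edgeR's quasi-likelihood test, adjusted by Benjamini-Hochberg across every tested gene, was under 0.05.

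Start-site windows of 3 members called between the cell types are shown for the motifs that they hold or lack. Each runs from 250 bases before to 50 after the RefSeq start in GRCm38.p6, 5′ to 3′ on the gene's strand, and capitals mark the searched motifs. The windows are Rab32 (chr10:10558158-10558457, minus strand) and Rab19 (chr6:39381103-39381402, plus strand), both higher in cDC1, and Rab6b (chr9:103111824-103112123, plus strand), lower in cDC1.
Rab32: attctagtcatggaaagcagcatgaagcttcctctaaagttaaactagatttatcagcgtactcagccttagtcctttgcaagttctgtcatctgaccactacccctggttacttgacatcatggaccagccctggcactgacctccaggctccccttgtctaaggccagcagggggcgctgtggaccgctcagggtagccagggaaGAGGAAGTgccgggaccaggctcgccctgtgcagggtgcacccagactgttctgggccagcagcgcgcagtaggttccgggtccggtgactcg
Rab19: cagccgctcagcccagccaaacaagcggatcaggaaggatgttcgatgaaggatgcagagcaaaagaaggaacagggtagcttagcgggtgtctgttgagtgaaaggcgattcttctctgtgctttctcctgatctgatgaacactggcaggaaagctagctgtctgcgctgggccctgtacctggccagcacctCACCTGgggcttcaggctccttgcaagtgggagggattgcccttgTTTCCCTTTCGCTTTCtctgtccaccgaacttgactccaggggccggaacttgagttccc
Rab6b: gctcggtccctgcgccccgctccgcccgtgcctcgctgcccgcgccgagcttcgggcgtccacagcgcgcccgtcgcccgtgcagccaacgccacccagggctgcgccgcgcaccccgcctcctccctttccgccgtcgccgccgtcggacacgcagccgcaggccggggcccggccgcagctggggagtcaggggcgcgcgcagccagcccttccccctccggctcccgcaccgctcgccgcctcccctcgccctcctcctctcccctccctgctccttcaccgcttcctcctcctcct
In Rab32 the capitals are GAGGAAGT, a form of the site bound by PU.1, the myeloid factor with which IRF8 can pair. In Rab19 they are CACCTG, the E-box letters that ZEB factors bind, and on the opposite strand overlapping copies of the core of the interferon-stimulated response element (GAAA, any 2 bases, GAAA), which IRF factors bind. The Rab6b window held none of the motifs and was rich in CG dinucleotides, with 42 against 10 in the Rab32 window and 9 in the Rab19 window. Both strands of the windows of 48 of the 59 members were searched for these and for TGANTCA, the AP-1 letters used by BATF with IRF partners. The motifs were chosen after the expression results were known. Of the 10 genes with a window that were higher in wild-type cDC1, 0 held TGANTCA, 1 the interferon-stimulated element (Rab19), 2 CACCTG (Rab19 and Rab3a) and 1 GAGGAAGT (Rab32), and of the 6 that were lower 0 held any of the 4 motifs. Of the 27 members not called, 2 held TGANTCA, 0 the interferon-stimulated element, 5 CACCTG and 1 GAGGAAGT. A member counted when any of its windows held the motif, whereas the shares over all promoters count each window. Among 32851 mouse windows of the same length, TGANTCA was in 7.81%, the interferon-stimulated element in 3.44%, CACCTG in 20.2% and GAGGAAGT in 3.20%. A match describes letters in these windows and is not evidence of binding.

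Levels differed widely within the family. Of the 59 genes, 16 reached 100 CPM or more in at least 1 group mean, 21 lay between 10 and 100 CPM at their highest, 11 between 1 and 10 CPM, and 11 stayed under 1 CPM in every group mean. The 5 untested genes were Rab9b, Rab15, Rab17, Rab25 and Rab40b. Over all 8 libraries the highest mean levels per length were those of Rab7, the late endosome and lysosome Rab, at 121.6 RPKM, Rab8b (exocytic and recycling traffic) at 111 RPKM, Rab1b (ER to Golgi transport) at 109 RPKM, Rab10 (exocytosis and recycling) at 93.4 RPKM and Rab32 (lysosome-related organelles and mitochondria) at 90.0 RPKM.

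The order differed between the cell types at its top. In wild-type cDC1 the highest level per length was that of Rab7b, rank 1 of 59 at a mean of 177 RPKM, and the next that of Rab32, rank 2 at 154 RPKM. In wild-type cDC2 the same genes held rank 37 at 1.34 RPKM and rank 11 at 22.5 RPKM, and Rab7 led at 114 RPKM, with Rab1b at 102 RPKM and Rab8b at 93.8 RPKM. Rab7 itself had 362 and 300.1 CPM in wild-type cDC1, against 297.5 and 298.5 CPM in wild-type cDC2, a log2 fold change of 0.15 ± 0.129 (SE) that was not called. Rab1b had 272 and 287 CPM in wild-type cDC1, against 251 and 210.5 CPM in wild-type cDC2 (log2 fold change 0.28 ± 0.128, not called).

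**Figure D1:**
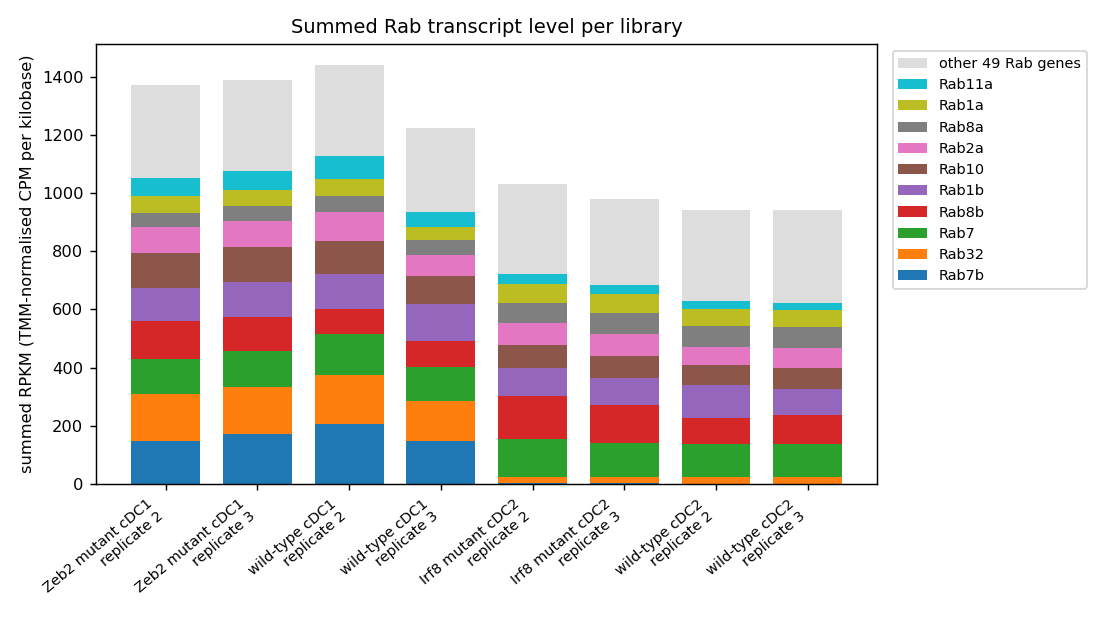
Summed level of the 59 Rab genes in each library (RPKM, TMM-normalised CPM per kilobase of exon), stacked by gene, with Rab7b and Rab32 at the foot and the 49 lower genes in grey. The cDC1 libraries stand at 1223 to 1440 RPKM and the cDC2 libraries at 939.7 to 1032 RPKM, and the Rab7b and Rab32 blocks are large in cDC1 and thin in cDC2.

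Added up, Rab transcripts were at 1371 and 1390 RPKM in Zeb2 mutant cDC1 and 1440 and 1223 RPKM in wild-type cDC1, and at 1032 and 980.2 RPKM in Irf8 mutant cDC2 and 941.1 and 939.7 RPKM in wild-type cDC2. The cDC1 and cDC2 libraries did not overlap. Rab7b alone made up 14.4% and 12.0% of the sum in wild-type cDC1, against 0.156% and 0.128% in wild-type cDC2, and Rab32 made up 11.7% and 11.4%, against 2.47% and 2.32%. Without these 2 genes the sums were 1061 and 1057 RPKM in Zeb2 mutant cDC1, 1065 and 937 RPKM in wild-type cDC1, 1006 and 956.5 RPKM in Irf8 mutant cDC2, and 916.4 and 916.8 RPKM in wild-type cDC2, so that the cDC1 and cDC2 libraries then overlapped. Fewer cells of a type and less RNA per cell cannot be told apart in such bulk libraries.

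Between wild-type cDC1 and wild-type cDC2, 18 Rab genes differed: 11 were higher and 7 lower in wild-type cDC1, out of 54 tested. That is 33.33% of the tested members, against 30.1% of all tested genes, and in each direction the background was 14.2% higher and 15.9% lower. The family was called about as often as other genes, with a median log2 fold change of 0.13 against 0.031 over all genes, so its share of calls is no result about the family. The counts by compartment below have the same background and rest on few genes each. The 4 with the largest changes at 5 CPM or more were Rab7b and Rab39, higher in cDC1, and Rab6b and Rab37, lower in cDC1. Markers of monocytes and macrophages differed between the same libraries: the 6 monocyte markers summed to 98.4 and 100.0 CPM in wild-type cDC1, against 713 and 701 CPM in wild-type cDC2 (2 called higher and 3 lower, Csf1r being most of the sum in cDC2), and the 6 macrophage markers to 61.3 and 54.9 CPM, against 359.5 and 337 CPM (0 higher and 5 lower). None of these 12 markers was at 0 in any of the 4 wild-type libraries, splenic cDC2 express several of them, and their part in the Rab differences was not tested.

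**Figure D2:**
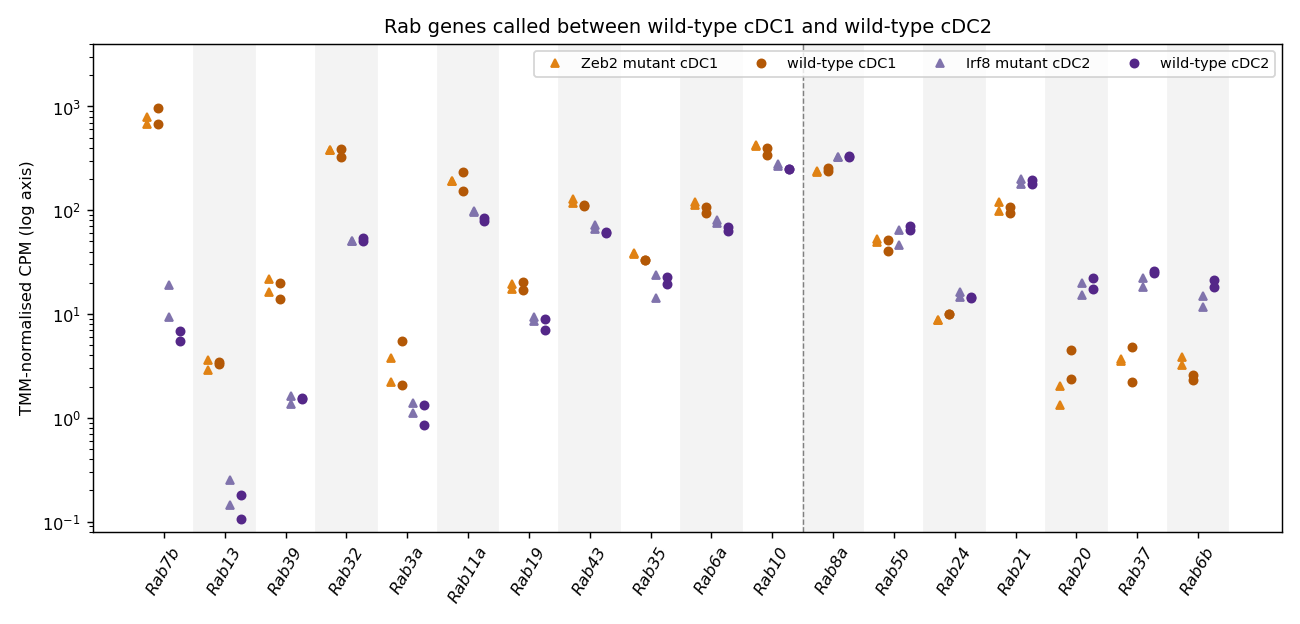
Level of each of the 18 Rab genes called between wild-type cDC1 and wild-type cDC2, per library, in TMM-normalised CPM on a log axis; triangles are mutants, circles wild type, and the dashed line separates genes higher in cDC1 (left) from genes lower in cDC1 (right). Mutant libraries lie on the side of their own cell type in 17 of the 18 genes. The genes run from Rab7b (677 to 959 CPM in cDC1, 5.54 to 19.0 CPM in cDC2) to Rab6b (2.31 to 3.82 CPM in cDC1, 11.7 to 21.3 CPM in cDC2). In Rab5b, Irf8 mutant cDC2 replicate 3 lies at 46.4 CPM, among the cDC1 libraries (40.7 to 52.9 CPM).

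Among the 4 tested Rabs of the late endosome and lysosome, 1 was called. Rab7b (ENSMUSG00000052688, chromosome 1, 131688695 to 131715439, GRCm38), a relative of Rab7 that acts between endosomes and the trans-Golgi network in human cells and limits Toll-like receptor signalling in macrophages, had 959 and 677 CPM in wild-type cDC1, against 6.80 and 5.54 CPM in wild-type cDC2. Both cDC1 libraries lay far above both cDC2 libraries. The mean was 132.5-fold higher in wild-type cDC1, a log2 fold change of 7.05 ± 0.367 (SE; edgeR adjusted p = 5.2e-07). Rab7, Rab9 (late endosome to Golgi retrieval) and Rab28 were not called.

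Of the 5 Rabs of lysosome-related organelles, Rab32 was called. Rab32 (ENSMUSG00000019832, chromosome 10, 10545002 to 10558265), which directs cargo to melanosomes and restricts intracellular bacteria in mouse macrophages, had 392.5 and 327 CPM in wild-type cDC1, against 54.3 and 50.9 CPM in wild-type cDC2. It was 6.84-fold higher (log2 fold change 2.77 ± 0.136, edgeR adjusted p = 2.83e-07), with no overlap of the groups. Its close relative Rab38, which shares the melanosome function, had 6.74 and 7.80 CPM in wild-type cDC1, against 8.51 and 7.55 CPM in wild-type cDC2, with overlapping groups and no call (log2 fold change -0.14 ± 0.274). Rab27a, needed for granule docking in cytotoxic T cells and melanocytes, had 16.8 and 25.2 CPM in wild-type cDC1, against 29.1 and 31.8 CPM in wild-type cDC2, a log2 fold change of -0.53 ± 0.234 that was not called (edgeR adjusted p = 0.116). It was called in 2 of 16 alternative analyses, without the filter on low counts and without wild-type cDC1 replicate 3.

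The 12 tested Rabs of recycling and exocytic traffic held 4 that were higher and 1 that was lower in wild-type cDC1. Rab11a (ENSMUSG00000004771, chromosome 9, 64715299 to 64737758), the marker of recycling endosomes, had 233 and 154 CPM in wild-type cDC1, against 83.7 and 78.2 CPM in wild-type cDC2, and was 2.40-fold higher (log2 fold change 1.26 ± 0.177, edgeR adjusted p = 0.000379). The wild-type cDC1 libraries stood apart from each other but both lay above both cDC2 libraries. Rab10, which brings Toll-like receptor 4 to the surface of mouse macrophages and GLUT4 to that of fat cells, had 402 and 338 CPM in wild-type cDC1, against 249.7 and 248.8 CPM in wild-type cDC2 (1.48-fold, edgeR adjusted p = 0.00593). Rab35, a Rab of fast endosomal recycling, had 33.3 and 33.5 CPM in wild-type cDC1, against 19.5 and 22.9 CPM in wild-type cDC2 (1.57-fold, edgeR adjusted p = 0.0435). Rab35 lay near the threshold and was called in 6 of 16 alternative analyses. Rab13, known from tight junctions of epithelia, was low in both, at 3.28 and 3.44 CPM in wild-type cDC1, against 0.182 and 0.107 CPM in wild-type cDC2. The difference was 23.3-fold (edgeR adjusted p = 4.25e-05) and rested on 190 and 201 counts against 10 and 6. Rab8a, an exocytic and ciliary Rab, was the member lower in cDC1, at 257 and 239 CPM in wild-type cDC1, against 328.5 and 329.6 CPM in wild-type cDC2 (1.33-fold lower, edgeR adjusted p = 0.0199, called in 10 of 16 alternatives). Rab8b had 419 and 424.5 CPM in wild-type cDC1, against 423 and 464 CPM in wild-type cDC2, and Rab14 and Rab11b were likewise not called.

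Of the 16 Rabs of the ER and Golgi, 4 were higher and 1 was lower in wild-type cDC1. Rab39 (ENSMUSG00000055069, chromosome 9, 53684110 to 53706232), found on the phagosomes of macrophages, had 13.9 and 19.7 CPM in wild-type cDC1, against 1.56 and 1.53 CPM in wild-type cDC2, a 10.9-fold difference (log2 fold change 3.44 ± 0.275, edgeR adjusted p = 7.49e-06). Rab43 (ENSMUSG00000030055, chromosome 6, 87788853 to 87812164), a Golgi Rab that mouse cDC1 use in cross-presentation, had 111 and 109 CPM in wild-type cDC1, against 61.7 and 59.8 CPM in wild-type cDC2 (1.81-fold, log2 fold change 0.86 ± 0.121, edgeR adjusted p = 0.000397). Of its exon length 75.3% is shared with the same-strand predicted gene Gm45140, which was listed with 27 to 126 counts per library, and how reads shared between genes were counted is not stated. Rab19, whose window is printed above, had 20.2 and 17.0 CPM in wild-type cDC1, against 9.02 and 6.98 CPM in wild-type cDC2 (2.33-fold, edgeR adjusted p = 0.00117). Rab6a, a Golgi Rab of retrograde transport and secretion, had 107 and 93.8 CPM in wild-type cDC1, against 62.6 and 69.0 CPM in wild-type cDC2 (1.53-fold, edgeR adjusted p = 0.00514); 19.0% of its exon length lies opposite Mrpl48, and whether reads were counted by strand is not given in the sources used here.

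Rab6b, the isoform of Rab6 known from neurons, went the other way. It had 2.59 and 2.31 CPM in wild-type cDC1, against 21.3 and 18.2 CPM in wild-type cDC2 (ENSMUSG00000032549, chromosome 9, 103111787 to 103185276). The groups did not overlap and Rab6b was 8.07-fold lower in wild-type cDC1 (log2 fold change -3.01 ± 0.239, edgeR adjusted p = 7.23e-06). The other 11 ER and Golgi Rabs, among them the abundant Rab1a, Rab1b and Rab2a, were not called.

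Of 8 tested Rabs of the early endosome list, 0 were higher and 4 were lower in wild-type cDC1. Over all tested genes 14.2% were higher and 15.9% lower. The median log2 fold change of the list was -0.48, against 0.031 over all genes. Between Zeb2 mutant cDC1 and Irf8 mutant cDC2 the same list gave 1 higher (Rab31) and 3 lower (Rab20, Rab21 and Rab24). There the background was 12.8% higher and 15% lower. The median of the list was -0.01, against -0.017 over all genes. Rab20 (ENSMUSG00000031504, chromosome 8, 11453518 to 11478710), a Rab of maturing phagosomes in macrophages, had 4.49 and 2.36 CPM in wild-type cDC1, against 22.3 and 17.6 CPM in wild-type cDC2, and was 5.82-fold lower (log2 fold change -2.54 ± 0.334, edgeR adjusted p = 0.000243). Of its exon length 25.6% lies opposite E230013L22Rik, which had 12 counts in each wild-type cDC1 library, against 55 and 72 in wild-type cDC2. Rab21, which moves integrins through early endosomes, had 108 and 94.0 CPM in wild-type cDC1, against 181 and 195 CPM in wild-type cDC2 (1.86-fold lower, edgeR adjusted p = 0.000901). Rab5b, an isoform of the early endosome Rab5, had 40.7 and 51.9 CPM in wild-type cDC1, against 64.1 and 69.7 CPM in wild-type cDC2 (1.45-fold lower, edgeR adjusted p = 0.0489). Rab24, a Rab linked to autophagy, had 9.97 and 10.1 CPM in wild-type cDC1, against 14.4 and 14.6 CPM in wild-type cDC2 (1.45-fold lower, edgeR adjusted p = 0.0476). Both lay at the threshold and were called in 7 of 16 alternatives, and 62.4% of the Rab24 exon length lies opposite Prelid1, which had 3983 to 6513 counts per library. Rab5a, Rab5c, Rab22a and Rab31 were not called.

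Of the 6 Rabs of regulated secretion, 1 was higher and 1 lower. Rab37 (ENSMUSG00000020732, chromosome 11, 115091431 to 115162236), found on mast cell granules, had 2.20 and 4.81 CPM in wild-type cDC1, against 24.9 and 26.2 CPM in wild-type cDC2, 7.30-fold lower (log2 fold change -2.87 ± 0.323, edgeR adjusted p = 8.19e-05; -3.54 without wild-type cDC1 replicate 3). Rab3a, the synaptic vesicle Rab, was low in both cell types, at 2.07 and 5.46 CPM in wild-type cDC1, against 1.33 and 0.853 CPM in wild-type cDC2 (3.45-fold, edgeR adjusted p = 0.021). The Rab3a call was lost without wild-type cDC1 replicate 3, without wild-type cDC2 replicate 2 and without wild-type cDC2 replicate 3, and its log2 fold change of 1.79 became 0.93 without wild-type cDC1 replicate 3. Rab3d, the most abundant of its subfamily, was not called, and the 3 tested less characterised Rabs (Rab40c, Rab42 and Rab44) were not called.

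Leaving out wild-type cDC2 replicate 2 lowered the number of called members to 7 higher and 4 lower, all of them among the 18. In all 16 alternative analyses 11 members stayed called: Rab7b, Rab13, Rab19, Rab43, Rab32, Rab39 and Rab11a higher, and Rab6b, Rab37, Rab20 and Rab21 lower in wild-type cDC1.

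The same cell types were compared a second time with no library in common, as Zeb2 mutant cDC1 and Irf8 mutant cDC2. There 12 Rab genes were higher and 7 lower in Zeb2 mutant cDC1, 35.19% of 54, against a background of 27.9% of all tested genes (12.8% higher and 15% lower). Of the 18 genes called in wild type, 16 were called here too, all in the same direction, which is 88.89% of the wild-type calls and 84.21% of the mutant calls. The matching share over all genes called in wild type was not counted, so these shares are no result about the family. Both comparisons come from 1 fit and share its estimate of the spread, and the mutant genotypes differ as well as the cell types. Rab7b had 678.5 and 795 CPM in Zeb2 mutant cDC1, against 19.0 and 9.42 CPM in Irf8 mutant cDC2 (51.9-fold higher, log2 fold change 5.70 ± 0.343, edgeR adjusted p = 1.38e-06; 6.29 without Irf8 mutant cDC2 replicate 2). Rab32 had 382 and 377 CPM in Zeb2 mutant cDC1, against 50.4 and 50.7 CPM in Irf8 mutant cDC2, 7.51-fold higher. Rab20 had 1.34 and 2.01 CPM in Zeb2 mutant cDC1, against 19.8 and 15.2 CPM in Irf8 mutant cDC2 (10.4-fold lower, log2 fold change -3.39 ± 0.352). Rab6b had 3.82 and 3.23 CPM in Zeb2 mutant cDC1, against 15.0 and 11.7 CPM in Irf8 mutant cDC2, 3.79-fold lower.

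**Figure D3:**
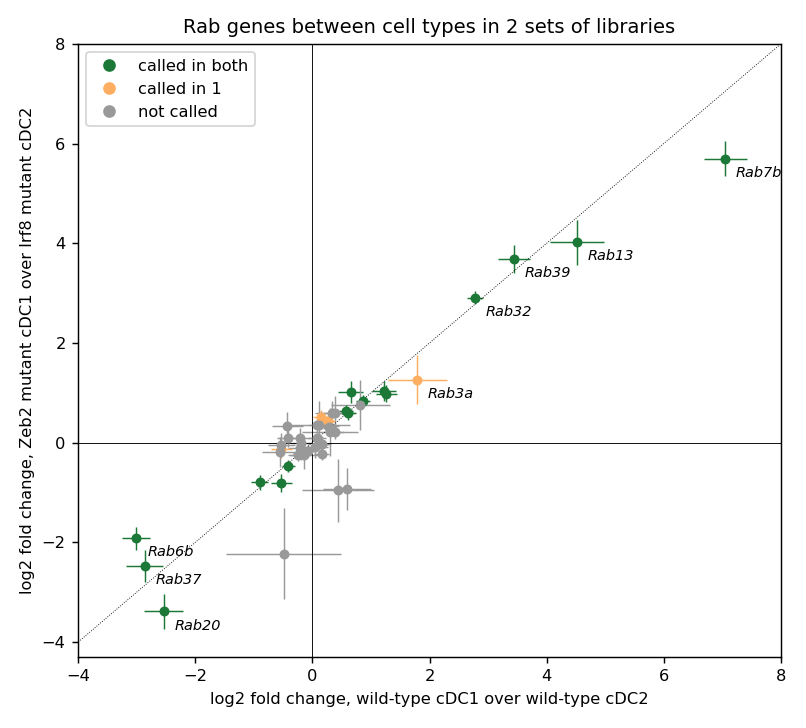
Log2 fold change of 48 Rab genes with at least 1 CPM in a group mean, for wild-type cDC1 over wild-type cDC2 (x axis) and Zeb2 mutant cDC1 over Irf8 mutant cDC2 (y axis); bars are standard errors, the dotted line marks equal values and colours mark calls. The called genes lie in both quadrants of equal sign. Rab7b (7.05 and 5.70) and Rab20 (-2.54 and -3.39) are among those off the dotted line.

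Rab5b and Rab3a were called in wild type only, and Rab33b, Rab31 and Rab3c between the mutants only. Whether these differ between the comparisons was tested as the difference of the mutant effects. In the main fit that test called none of them, beside 0.0194% of all tested genes, and without the filter on low counts it called Rab3c. Rab33b, a Golgi and autophagy Rab, had 36.0 and 34.2 CPM in Zeb2 mutant cDC1, against 24.2 and 25.04 CPM in Irf8 mutant cDC2 (1.43-fold higher, edgeR adjusted p = 0.0181). Rab31, an endosomal Rab of the Rab22 subfamily, had 80.8 and 80.5 CPM in Zeb2 mutant cDC1, against 63.4 and 55.6 CPM in Irf8 mutant cDC2 (1.36-fold higher, edgeR adjusted p = 0.0298). Rab3c had 0 counts in both Zeb2 mutant libraries, against 20 and 6 in Irf8 mutant cDC2. With the Zeb2 mutant group set to a floor of 3 counts it was at least 9.12-fold lower, and it was called in 7 of 16 alternatives. Wild-type cDC1 had 3 and 51 Rab3c counts, against 6 and 8 in wild-type cDC2. The 18 genes called in wild type were picked on the wild-type libraries. In 17 of them, all but Rab5b, the 4 cDC1 libraries and the 4 cDC2 libraries did not overlap. Over the family this held for 22 of 54 tested members, against 40.0% of all tested genes.

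Within subfamilies of close paralogues the share of each copy differed between the cell types. Of the summed Rab7 and Rab7b level per length, Rab7b held 59.9% and 56% in wild-type cDC1, against 1.27% and 1.04% in wild-type cDC2. The mutants lay beside their own cell type, with 55.1% and 58.3% in Zeb2 mutant cDC1 and 3.07% and 1.69% in Irf8 mutant cDC2. Rab7 itself was not called, and the subfamily sum stood at 346 and 261 RPKM in wild-type cDC1, against 115.4 and 115.6 RPKM in wild-type cDC2.

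Shares in the Rab11 and Rab6 pairs differed between the cell types too. Rab11a held 73.5% and 68.4% of the Rab11 level in wild-type cDC1, against 46.8% and 46.7% in wild-type cDC2, where Rab11b, its close paralogue, held slightly more. The Rab11a share was 70.8% and 70.3% in Zeb2 mutant cDC1, against 49.2% and 52.2% in Irf8 mutant cDC2. Rab6b held 1.77% and 1.79% of the Rab6 level in wild-type cDC1, against 20.2% and 16.4% in wild-type cDC2, and in the Rab6 pair the copies were called in opposite directions. Rab38 held 2.48% and 3.42% of the summed Rab32 and Rab38 level in wild-type cDC1, against 18.9% and 18.03% in wild-type cDC2, while Rab38 itself was not called. Reads of near-identical stretches of paralogues and of the processed pseudogenes of Rab7, Rab5a, Rab9b and Rab11b may have been split in counting.

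**Figure D4:**
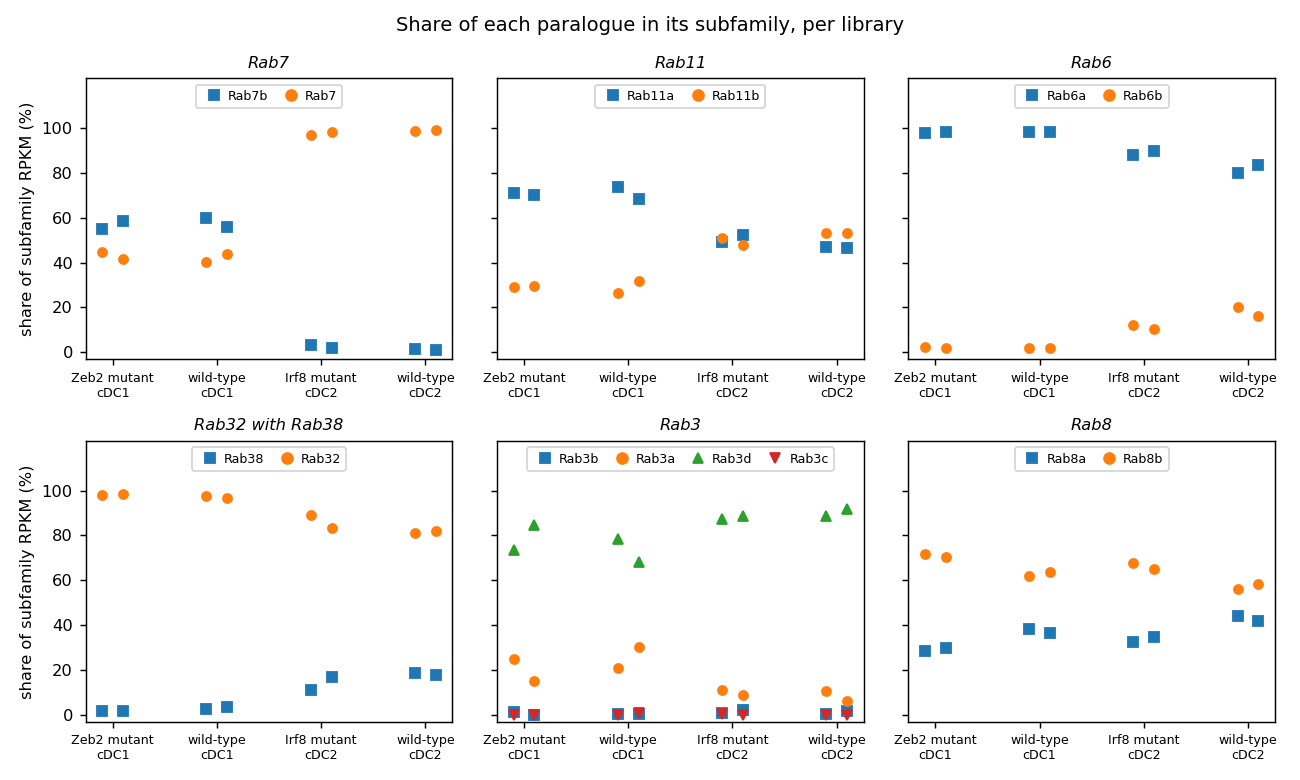
Share of each paralogue in the summed RPKM of its subfamily (percent, y axis) in each of the 8 libraries, by group, for 6 subfamilies. Rab7b and Rab7 are close to even in cDC1 and Rab7b is at 1.04% to 3.07% in cDC2, Rab6b is at 10.4% to 20.2% in cDC2 and 1.77% to 2.28% in cDC1, and Rab8b takes a larger share in both mutants than in their wild types.

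In the Rab6 pair, the pair of Rab32 with Rab38 and several other subfamilies the same copy led in all 8 libraries. Rab2a held 98.8% to 99.6% of the Rab2 level and Rab27a at least 99.46% of the Rab27 level in every library. Rab31 held 72.1% to 78.7% of the summed Rab22a and Rab31 level, and Rab1b 58.6% to 74.3% of the Rab1 level.

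Regulators of the family were read from 4 lists of 121 genes. Among 36 tested GEFs, 5 were higher and 16 lower in wild-type cDC1 than in wild-type cDC2, and among 35 tested GAPs 2 were higher and 18 lower, beside backgrounds of 14.2% higher and 15.9% lower. Their median log2 fold changes were -0.56 and -0.48, against 0.031 over all genes. Between Zeb2 mutant cDC1 and Irf8 mutant cDC2 the lower calls again outnumbered the higher ones (5 higher and 13 lower GEFs, 3 higher and 11 lower GAPs), but the medians were -0.04 for GEFs and -0.19 for GAPs, against -0.017 over all genes. Effectors gave 1 higher and 5 lower of 36 tested between the wild types (median -0.26) and 3 higher and 4 lower between the mutants (median 0.14). Between the wild types the Rab chaperone and prenylation genes, which keep Rabs soluble and attach their lipid anchors, gave 2 higher (Rabif and Rabggta) of 7, with Chm among the lower. The log2 fold change fell with gene length across 8399 genes (Spearman's rho -0.274), and its part in the regulator counts was not tested.

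The 2 GEFs with the largest differences were lower in wild-type cDC1. Rin2, a GEF of Rab5, had 10.5 and 9.43 CPM in wild-type cDC1, against 243 and 267 CPM in wild-type cDC2 (25.6-fold lower, edgeR adjusted p = 2.56e-08). Dennd3, a GEF of Rab12, had 15.7 and 20.7 CPM in wild-type cDC1, against 337 and 321 CPM in wild-type cDC2, 18.1-fold lower, while Rab12 itself was not called. Rabgef1, another Rab5 GEF, was 2.80-fold lower and Dennd4a, a GEF of Rab10, 3.67-fold lower, while Rab10 itself was called higher. In the other direction Dennd2d, a DENN-domain GEF, had 59.1 and 57.7 CPM in wild-type cDC1, against 11.3 and 10.1 CPM in wild-type cDC2 (5.46-fold higher, edgeR adjusted p = 9.76e-07). Hps4, a subunit of the BLOC-3 complex that activates Rab32 and Rab38, had 60.9 and 56.9 CPM in wild-type cDC1, against 40.1 and 32.3 CPM in wild-type cDC2 (1.63-fold higher, edgeR adjusted p = 0.00397), in the direction of Rab32. Dennd1b, a GEF of Rab35, was 1.85-fold and Dennd2c 2.21-fold higher.

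Of the GAPs, Tbc1d4, which acts on Rab10 and Rab8a in insulin-stimulated glucose uptake, had 581.5 and 469 CPM in wild-type cDC1, against 2969 and 3299 CPM in wild-type cDC2 (5.96-fold lower, edgeR adjusted p = 8.04e-07). Tbc1d16, a GAP of Rab4 in human cells, was 12.4-fold, Tbc1d30 11.2-fold and Usp6nl, a GAP of Rab5, 3.17-fold lower. Rabgap1l, at 76.4 and 66.5 CPM in wild-type cDC1, against 29.6 and 31.6 CPM in wild-type cDC2, was 2.34-fold higher, and Tbc1d14 1.51-fold higher. Among effectors Uso1, the Rab1 effector that tethers vesicles at the Golgi, was 1.43-fold higher in wild-type cDC1, and Rab11fip5, an effector of Rab11, was 3.01-fold lower. Lrrk1, Appl2, which binds Rab5, and Rilpl2 were 1.69-fold to 1.77-fold lower.

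In Zeb2 mutant cDC1 against wild-type cDC1, edgeR called 0 of 54 Rab genes, beside 0.0679% of all tested genes. DESeq2 also called 0, beside 1.74% of the genes to which it gave an adjusted p. Of the regulators 0 were called in either mutant. At 5 CPM or more, the smallest p was that of Rab8b, the exocytic and recycling Rab, with 610.1 and 563 CPM in Zeb2 mutant cDC1, against 419 and 424.5 CPM in wild-type cDC1 (1.39-fold, log2 fold change 0.48 ± 0.122, edgeR adjusted p = 0.239). Rab20 had 1.34 and 2.01 CPM in Zeb2 mutant cDC1, against 4.49 and 2.36 CPM in wild-type cDC1 (log2 fold change -1.03 ± 0.338, edgeR adjusted p = 0.336). The 10 cDC2 markers summed to 45.9 and 38.2 CPM in Zeb2 mutant cDC1, against 57.1 and 43.6 CPM in wild-type cDC1. Of these markers 0 were called higher and 1 lower, and their part in the Rab20 values was not tested. Rab20 was called without wild-type cDC1 replicate 3, where the share of all tested genes called stood at 5.02%, and without the filter on low counts, where it stood at 1.09%. Rab40c, part of a ubiquitin ligase, had 13.9 and 15.5 CPM in Zeb2 mutant cDC1, against 18.5 and 20.4 CPM in wild-type cDC1 (log2 fold change -0.40 ± 0.171, edgeR adjusted p = 0.444). The log2 fold change of this comparison followed gene length over 8399 genes (Spearman's rho 0.481), and with that trend removed 0 members were called.

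In Irf8 mutant cDC2 against wild-type cDC2, edgeR likewise called 0 of 54 Rab genes, beside 0% of all tested genes. DESeq2 called 2, Rab7b and Rab8b, beside 0.948% of the genes to which it gave an adjusted p. Rab8b had 691 and 621 CPM in Irf8 mutant cDC2, against 423 and 464 CPM in wild-type cDC2 (1.48-fold, log2 fold change 0.56 ± 0.122, edgeR adjusted p = 0.34, DESeq2 adjusted p = 0.0243). Rab7b had 19.0 and 9.42 CPM in Irf8 mutant cDC2, against 6.80 and 5.54 CPM in wild-type cDC2 (2.30-fold, log2 fold change 1.20 ± 0.299, edgeR adjusted p = 0.453, DESeq2 adjusted p = 0.00196; log2 fold change 0.61 without Irf8 mutant cDC2 replicate 2). Both mutant libraries lay above both wild-type libraries and far below every cDC1 library, whose lowest value was 677 CPM. Beside Rab7b, the summed cDC1 markers were at 289 and 252 CPM in Irf8 mutant cDC2, against 265.5 and 244 CPM in wild-type cDC2. Irf8 itself made up 147 and 120.0 CPM of the sum in Irf8 mutant cDC2, against 126 and 104 CPM in wild-type cDC2. Xcr1 was at 6.28 and 6.16 CPM, against 3.76 and 3.41 CPM, and Clec9a at 8.07 and 8.04 CPM, against 10.8 and 10.6 CPM. None of the 10 cDC1 markers was at 0, 0 were called, and their part in the Rab7b values was not tested. Rab40c had 13.4 and 16.1 CPM in Irf8 mutant cDC2, against 22.1 and 22.3 CPM in wild-type cDC2 (log2 fold change -0.59 ± 0.171, edgeR adjusted p = 0.525).

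**Figure D5:**
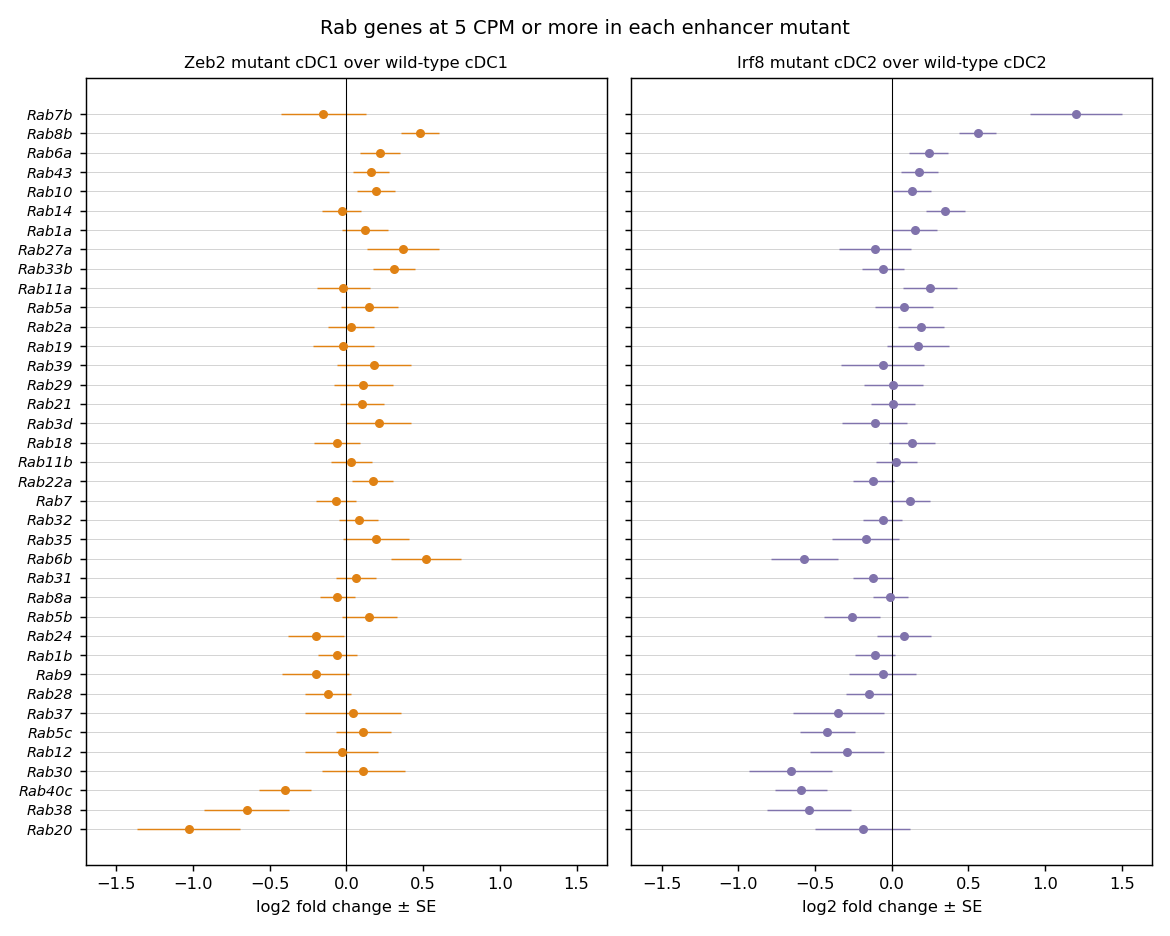
Log2 fold change with standard error of 38 Rab genes at 5 CPM or more, in Zeb2 mutant cDC1 over wild-type cDC1 (left) and Irf8 mutant cDC2 over wild-type cDC2 (right). edgeR called 0 genes in either panel; Rab8b lies at 0.48 and 0.56, Rab40c at -0.40 and -0.59, and Rab7b at -0.15 and 1.20.

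The difference between the mutant effects was not called by edgeR for any member (0 of 54, beside 0.0194% of all tested genes). For Rab7b it was -1.35 ± 0.408 on the log2 scale (edgeR adjusted p = 0.457); DESeq2 gave it an adjusted p of 0.0336 and called 1.13% of all genes with one. For Rab6b, with 3.82 and 3.23 CPM in Zeb2 mutant cDC1, against 2.59 and 2.31 CPM in wild-type cDC1, and 15.0 and 11.7 CPM in Irf8 mutant cDC2, against 21.3 and 18.2 CPM in wild-type cDC2, it was 1.09 ± 0.318 (edgeR adjusted p = 0.426). In each mutant the Rab6b values were shifted from wild type toward the other cell type, without a call in either. They did not reach the libraries of that other cell type.

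Rab8b and Rab40c lay on the same side of wild type in both mutants, and the mean of the mutant effects was tested after this had been seen. The mutant comparisons share no library. edgeR called 0 of 54 members (beside 0.0921% of all tested genes), with Rab8b at a mean log2 fold change of 0.52 ± 0.086 and an adjusted p of 0.0797. DESeq2 called 3, beside 1.73% of the genes to which it gave an adjusted p: Rab8b (adjusted p = 0.000226), Rab40c (log2 fold change -0.50, adjusted p = 0.0223) and Rab44 (log2 fold change 1.93, adjusted p = 0.0076). Counted by library, 5 members lay above wild type in every library of both mutants (Rab8b, Rab6a, Rab43, Rab10 and Rab44), beside 4.59% of all tested genes, and 4 lay below (Rab40c, Rab38, Rab28 and Rab8a), beside 4.98%. Another 3 lay apart from wild type in opposite directions (Rab22a, Rab33b and Rab6b), beside 6.37%. In the Rab8 pair the share of Rab8b was 71.6% and 70.2% in Zeb2 mutant cDC1, against 61.7% and 63.7% in wild-type cDC1, and 67.5% and 65.2% in Irf8 mutant cDC2, against 56.02% and 58.2% in wild-type cDC2.

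Rab44, a large Rab with calcium-binding EF hands that is known from mast cell and osteoclast granules, was low throughout and is named after its values were seen. It had 1.12 and 1.38 CPM in Zeb2 mutant cDC1, against 0.380 and 0.222 CPM in wild-type cDC1, and 0.944 and 0.999 CPM in Irf8 mutant cDC2, against 0.291 and 0.266 CPM in wild-type cDC2. Of the 6 neutrophil markers, 5 were tested and 0 called in either mutant, and their sum was higher in the same libraries, at 55.9 and 79.7 CPM in Zeb2 mutant cDC1, against 9.57 and 0.770 CPM in wild-type cDC1, and 36.1 and 30.9 CPM in Irf8 mutant cDC2, against 1.0 and 11.9 CPM in wild-type cDC2. Mpo and Elane were above 0 in every library, S100a9 was at 0 in wild-type cDC2 replicate 2 and Ly6g at 0 in the replicate 3 libraries of both cDC2 groups, and the part of such cells in the Rab44 values was not tested.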

How the data were processed

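Per the labels' protocols, RNA of sorted splenic cDC was made into cDNA with a SMARTer kit and sequenced with paired reads of 150 bases. The tools bcl2fastq, STAR, featureCounts of Subread, and Salmon, and the builds mm10 and GRCm38, are named per the submitters' processing notes. The tests used the deposited count column (whole reads assigned to a gene); the deposited CPM, FPKM and TPM columns entered no test. edgeR 4.0.16 in R 4.3.3 was run on all genes (filterByExpr, TMM, robust quasi-likelihood fit of 4 group means over 8 libraries, 4 residual degrees of freedom). Standard errors were derived from the fold change and its F statistic. A fold is the ratio of the group means in CPM, and the floor of 3 counts covers counting error only. Symbols came from GENCODE M21, which named 55141 of 55487 IDs. Members, role and regulator lists were chosen with earlier results of these data known. A gene of the regulator lists is not reported here. Named genes were called members at 5 CPM or more, the 5 highest per length, the 3 smallest p per mutant, and 4 regulators per list and direction; the other called members, Rab38, Rab27a, Rab6b between the mutants and Rab44 were added. Alternatives were RLE scaling, other filters, a replicate block, removal of a length trend, single libraries left out, the compared groups alone and DESeq2 1.42.0.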

Additional observations from a re-analysis of the deposited data

How the results depend on the processing

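The 18 Rab genes called between the wild types became 17 to 19 with another scaling, filter or tool, 15 to 16 with the length trend removed, a replicate block or the compared groups alone, and 11 to 21 when 1 library was left out; the lowest value was without wild-type cDC2 replicate 2 and the highest without wild-type cDC1 replicate 3. Between the mutants the 19 calls became 17 to 22 under the same settings, and 13 to 22 with 1 library left out. For Zeb2 mutant cDC1 against wild-type cDC1 the count of 0 became 2 without the filter on low counts (Rab20 and Rab3c) and ranged from 0 to 1 with a library left out. For Irf8 mutant cDC2 against wild-type cDC2 it became 3 without that filter (Rab7b, Rab4a and Rab30) and 2 with DESeq2, and stayed 0 with any library left out. The difference of effects gave 2 without the filter and 1 with DESeq2; the mean effect, added after seeing the data, gave 4 without the filter, 3 with DESeq2 and 0 to 1 with a library left out. The cause was not tested. No named member changed direction when called. Over all alternatives the called members kept their call between the wild types 249 times and lost it 39 times; between the mutants 280 kept it and 23 lost it. Libraries with the same replicate number did not deviate together (correlations of replicate deviations -0.183 to 0.0691), which cannot show whether they were handled together. With a replicate block 15 members were called between the wild types (10 higher, 5 lower), 17 between the mutants (11 and 6) and 0 in the other comparisons. Groups of 2 libraries limit what can be called, as do the low counts of the 11 members under 1 CPM.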
